A study of Arabidopsis thaliana with 8 samples.

Results

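The genes described here are the 48 of 33199 genes in the deposited table whose symbol is CRK followed by a number, chosen by that symbol alone. They belong to 2 distinct kinase families that share the abbreviation. Of them, 41 are cysteine-rich receptor-like kinases and 7 are CDPK-related kinases. Across or within these families, 7 symbols are each held by 2 genes, and those genes are named here with their family or their locus. The study measured polyadenylated RNA of wild-type Arabidopsis thaliana, accession Col-0, in 4 libraries of shoot and 4 of root, with no agent or mutation named for either tissue. Plant age, growth medium and harvest were not used here, because the sources do not give them for these plants. Whether libraries of a tissue represent separate plants is also not said, so the p-values reflect only how far these libraries spread, which may be technical. In whole tissue, fewer cells of a type and less RNA per cell cannot be told apart.

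A cysteine-rich receptor-like kinase sits in the plasma membrane with a pair of DUF26 domains outside the cell, each built around a C-X8-C-X2-C cysteine motif, and a kinase domain inside. The family is known in leaves for responses to pathogens, salicylic acid and extracellular reactive oxygen species, and many members lie in tandem arrays that grew by local gene duplication. CDPK-related kinases are cytosolic or membrane-anchored relatives of the calcium-dependent protein kinases. They have no extracellular domain, and their degenerate calcium-binding region is thought to work with calmodulin.

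The label was checked against the coding sequences of the RefSeq annotation of TAIR10.1, in which all 48 genes had the same bounds as in the table. The cysteine motif occurred in the coding sequence of all 41 cysteine-rich genes and of 0 of the 7 CDPK-related genes. Of the 41, 38 held 2 copies, CRK23 held 3, and CRK24 and CRK27 held 1 each. The cysteine-rich genes had 265 to 1043 codons, with a median of 659. CRK9 and the CRK34 gene AT4G11521 were the shortest, with 265 codons each, and the table lists no protein domain for either. For the longest, CRK8 (AT4G23160) with 1043 codons, it lists the domain RVT_2 and no kinase domain. The symbol thus includes genes without an annotated kinase domain. Between pairs of cysteine-rich coding sequences the median identity was 67.3% over 820 pairs.

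Libraries held 9857791 to 12460762 reads. The deposited values are FPKM, reads divided by gene length and by a library size that the authors scaled, so levels can be compared between genes. Relative to its read total, this size was 0.770 to 0.865 for shoot libraries but 1.18 to 1.25 for root libraries. For a gene of 1 kb, 3 reads in a library correspond to 0.192 to 0.375 FPKM. The tissue labels were checked with 4 markers each. The summed shoot markers (RBCS1A, LHCB1.3, CA1 and FIL) reached 37200 to 48710 FPKM in shoot and 25.9 to 248 FPKM in root, where FIL had no read. The summed root markers (PHT1;1, NRT1.5, CASP1 and PIN2) reached 3.28 to 9.22 FPKM in shoot and 732 to 816 FPKM in root. Shoot markers were not equally low in the 4 root libraries. Their median was 0.376%, 0.192%, 0.0278% and 0.0329% of the shoot mean in root libraries 1 to 4.

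Cysteine-rich receptor-like kinase transcripts were more abundant in shoot. Summed over the 41 genes, the level was 335, 293, 319 and 266 FPKM in the shoot libraries and 121, 110, 105 and 94.1 FPKM in the root libraries. The means were 303 ± 30.3 FPKM in shoot and 107.5 ± 11.1 FPKM in root (SD, n = 4 each), and every shoot library lay above every root library. CRK29 made up 31.8% of the sum in shoot and 25.9% in root. Of the 41 genes, 21 had a mean above 1 FPKM in shoot and 11 in root. The 7 CDPK-related kinases summed to 78.1 ± 5.39 FPKM in shoot and 108 ± 7.23 FPKM in root (SD, n = 4 each).

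Each gene with at least 0.5 FPKM in at least 4 libraries was tested with limma on log2(FPKM + 0.5), with p-values adjusted over all 20314 such genes, and genes with an adjusted p below 0.05 count here as called. Fold changes are given as root minus shoot on that log2 scale, which understates the change of genes with low levels. Over all genes tested, 69.6% were called, 37.6% higher in root and 32.0% higher in shoot. Root made up 54.0% of all calls, and 75.5% when libraries were scaled by read totals alone. Of the 48 genes, 31 passed the filter and 29 were called, 20 higher in shoot and 9 higher in root. The other 17 genes, all cysteine-rich, were not tested. Among the 24 cysteine-rich genes tested, 19 were called higher in shoot and 5 higher in root, and with libraries scaled by read totals alone the split was 16 and 5. Of these 24 genes, 16 reached 0.5 FPKM in every library of only 1 tissue (13 in shoot and 3 in root). They passed the filter through the tissue where they were higher, which leaves their count as a description. Changes of at least 2-fold were called higher in shoot in 17 of the 24 cysteine-rich genes and higher in root in 4. Over all genes tested the shares were 18.1% and 20.9%. These counts, and the median and non-overlap given next, include the 16 genes above and are likewise a description. The median log2 fold change of the 24 genes was -1.84, beside 0.07 over all genes tested. This median depends on the processing: it was -3.09 at a pseudocount of 0.1, -3.90 with limma-voom on the recovered reads, and -0.94 with no filter, which adds the low genes, while that of all genes was 0.08, 0.08 and 0.07. Levels in the 2 tissues did not overlap for 22 of the 24, beside 64.8% of all genes tested. The 8 cysteine-rich genes at 0.5 FPKM or more in all 8 libraries were CRK2 (AT1G70520), CRK3 (AT1G70530), CRK10, CRK11, CRK19, CRK28, CRK29 and CRK34 (AT4G11530), of which 6 were called higher in shoot and 2 higher in root. Of these calls, those of CRK2 and CRK3 (shoot) were kept in 13 of 17 alternative settings and that of CRK19 (root) in 7 of 17. With read totals alone, CRK2 and CRK3 were not called.

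**Figure D1:**
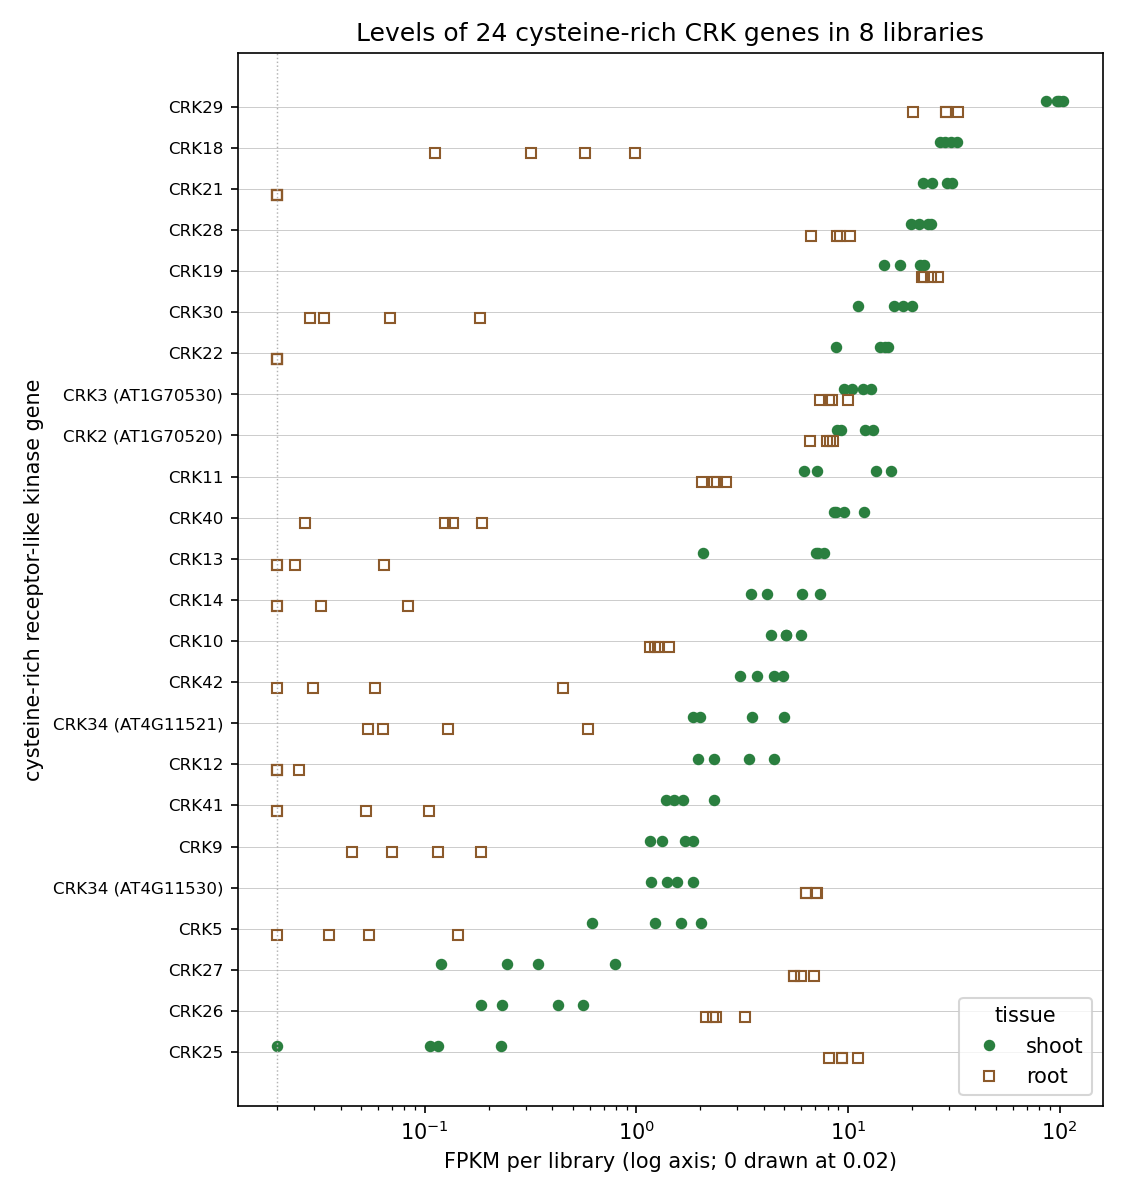
Level of the 24 tested cysteine-rich CRK genes in each of the 8 libraries, in FPKM on a log axis, with filled circles for shoot, open squares for root, and libraries without reads placed on the dotted line. CRK29 has the highest mean in both tissues, CRK21 and CRK22 have no read in any root library, and CRK25, CRK26 and CRK27 are the genes with the higher points in root and under 1 FPKM in every shoot library.

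**Figure D2:**
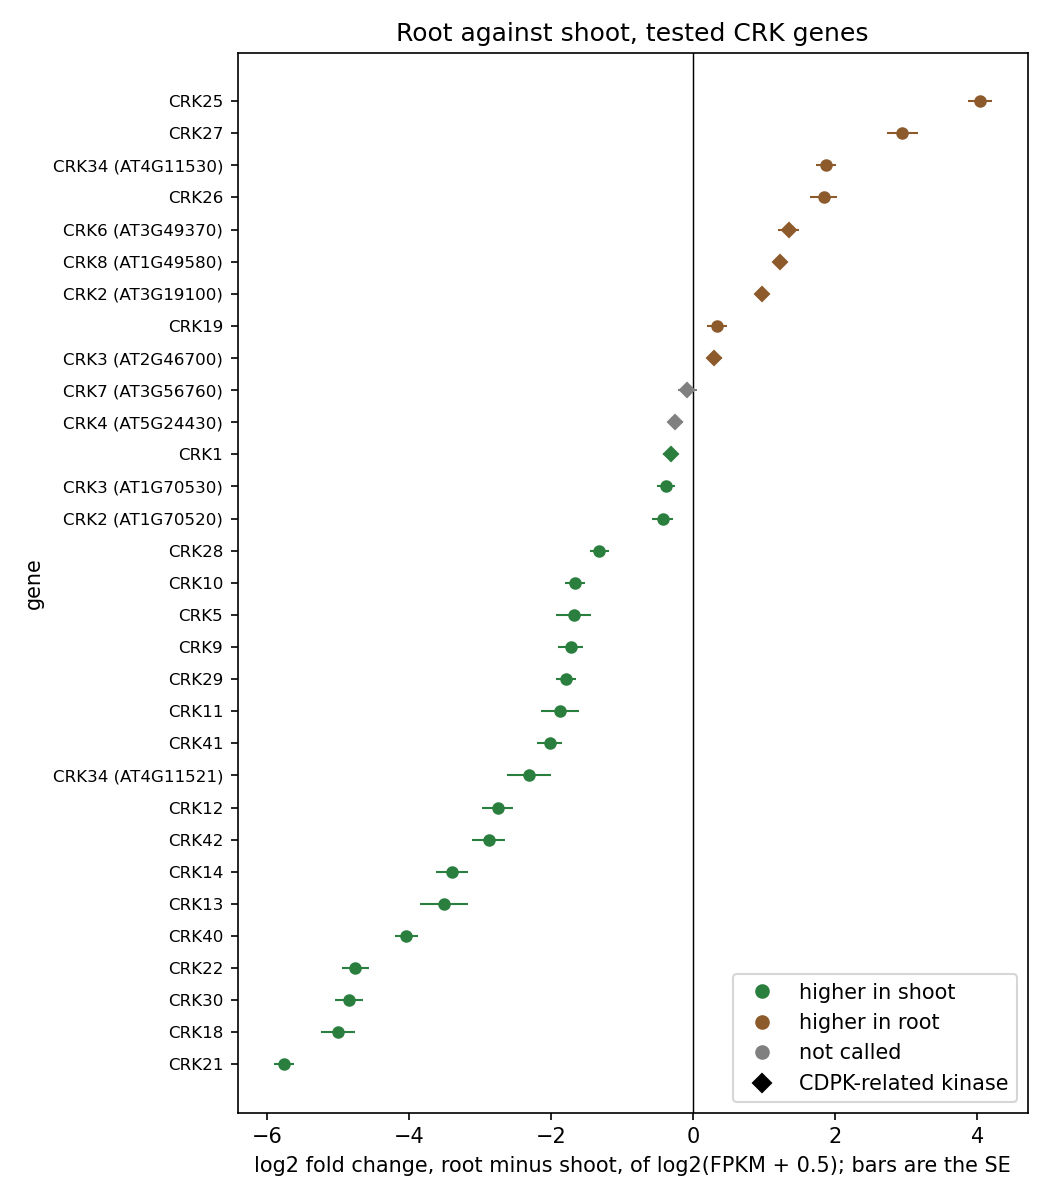
Log2 fold change (root minus shoot, of log2(FPKM + 0.5)) of the 31 tested CRK genes, with bars for the SE; circles are cysteine-rich genes and diamonds CDPK-related kinases. Cysteine-rich genes run from -5.77 for CRK21 to 4.03 for CRK25, while the CDPK-related kinases lie between -0.32 and 1.35.

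CRK28 and CRK29 adjoin each other on chromosome 4 (chr4:11398857-11402180 and chr4:11401711-11405235, minus strand, TAIR10). CRK28 is known to associate with BAK1, the co-receptor of many immune receptors, and to promote responses to bacterial flagellin. CRK29 was at 104, 86.4, 99.3 and 96.7 FPKM in shoot and at 32.9, 29.1, 29.0 and 20.3 FPKM in root. Its lowest shoot library was more than 2 times its highest root library, and the log2 fold change was -1.80 (SE 0.14, limma adjusted p = 6.48e-07). CRK28 was at 23.7, 21.6, 24.5 and 19.8 FPKM in shoot and at 10.2, 8.84, 9.17 and 6.71 FPKM in root, again with no overlap, and fell by 1.32 in root (SE 0.13, limma adjusted p = 5.55e-06). The pair was therefore present in both tissues, at its highest in shoot. The annotated genes overlap by 470 bases on the same strand and their coding sequences are 86.9% identical, so reads of 1 may have been counted for the other, and their separate values are uncertain to that extent.

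The longest run of neighbouring genes, defined by starts no more than 10 kb apart, spans chr4:12117491-12191704 (74.2 kb). It holds 19 genes with a CRK symbol and 4 genes without one. Those 4, EMB1290 among them, were set apart by symbol alone, and their families were not checked. The CRK genes of this run summed to 124 ± 20.6 FPKM in shoot and 28.6 ± 2.43 FPKM in root (SD, n = 4 each). Of the 19, 11 were tested, 10 of them called higher in shoot and CRK19 called higher in root, and 8 were too low to test. The level changed steeply from gene to gene along the run. CRK22, at 13.3 FPKM in shoot, was followed 594 bases on by CRK23, which had no read in any library.

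**Figure D3:**
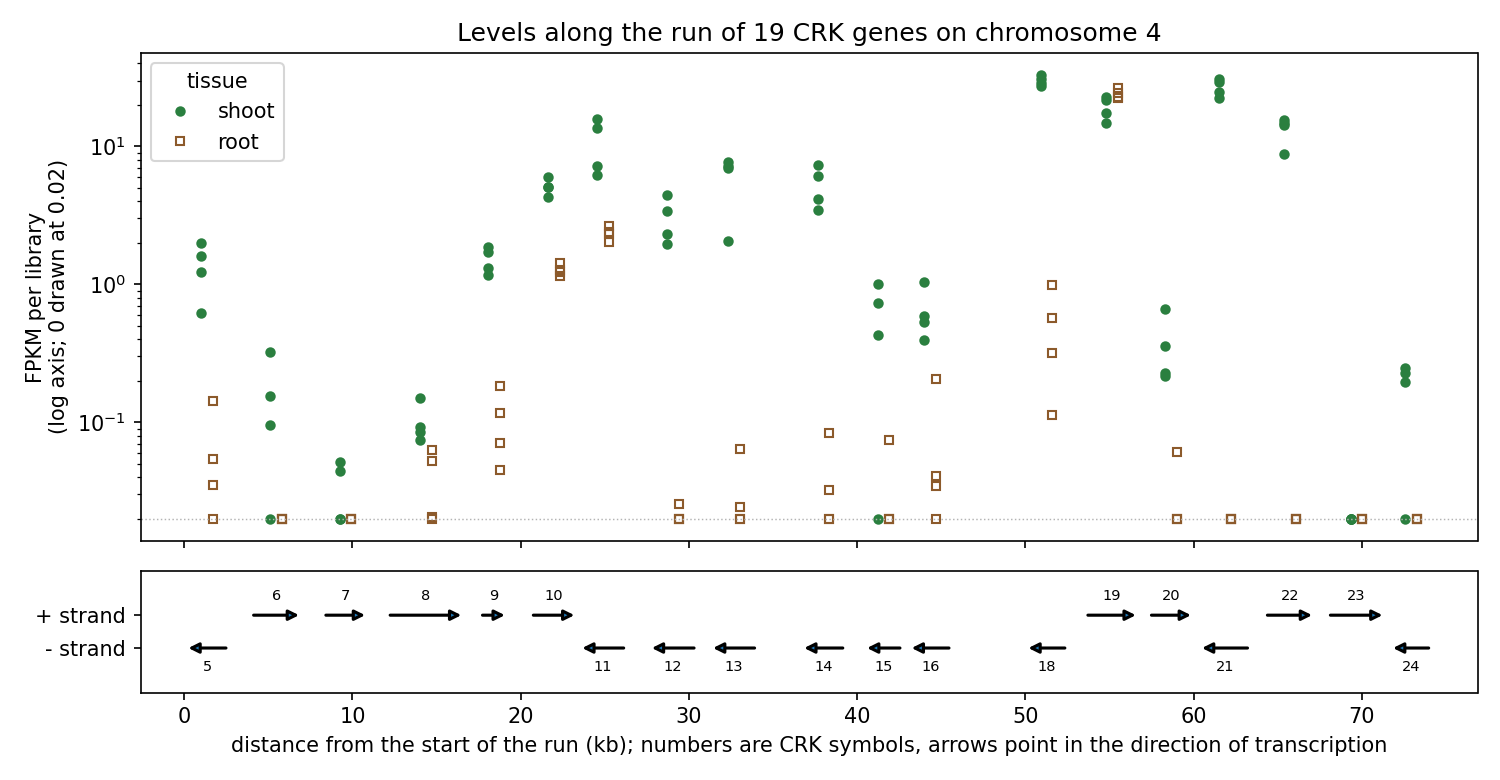
Level of the 19 CRK genes of the chromosome 4 run in each library, in FPKM on a log axis. Filled circles are shoot, open squares are root, and libraries without reads are placed on the dotted line. Below is a map of the genes, drawn as arrows by strand against the distance in kilobases from the start of the run. Numbers on the map are the CRK numbers. CRK18, CRK21 and CRK22 stand high in shoot and at or near 0 in root, while CRK19 is at about the same height in both tissues.

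A pair in this run, CRK21 and CRK22, had no read in root. CRK21 (chr4:12177734-12180936, minus strand) was at 31.0, 29.5, 24.9 and 22.5 FPKM in shoot, from 2236 reads, and had 0 reads in all 4 root libraries. Against a floor of 3 reads over the root libraries, its level was at least 1147-fold higher in shoot (limma adjusted p = 1.91e-10). CRK22 (chr4:12181625-12184774, plus strand) was at 14.2, 14.9, 15.4 and 8.81 FPKM in shoot and also had 0 reads in root, which made it at least 627-fold higher in shoot (limma adjusted p = 3.27e-09). These bounds cover counting error only. The genes are transcribed away from each other from starts separated by 688 bases. CRK13 and CRK22 share an identical coding stretch of 309 bases, longer than a 150-base read, so reads could have been exchanged between them in shoot. The 250 bases before each start are shown because neither gene had a root read, given 5′ to 3′ on the gene's own strand from the RefSeq TAIR10.1 genome (chr4:12180937-12181186 minus and chr4:12181375-12181624 plus). Capitals would mark the W-box core, and neither window holds it on either strand.
CRK21: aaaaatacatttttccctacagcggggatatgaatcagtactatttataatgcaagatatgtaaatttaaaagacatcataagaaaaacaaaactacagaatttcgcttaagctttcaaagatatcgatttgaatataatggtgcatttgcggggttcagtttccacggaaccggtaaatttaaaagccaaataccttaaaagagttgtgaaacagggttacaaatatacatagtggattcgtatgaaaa
CRK22: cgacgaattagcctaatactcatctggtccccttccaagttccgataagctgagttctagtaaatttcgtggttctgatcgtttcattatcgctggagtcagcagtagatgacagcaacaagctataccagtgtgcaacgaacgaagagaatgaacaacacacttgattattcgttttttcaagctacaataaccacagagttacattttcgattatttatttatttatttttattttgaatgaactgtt

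CRK18 and CRK19 are another divergent pair of this run, with starts separated by 874 bases and unlike patterns. CRK5 and CRK6 (AT4G23140), at 1148 bases, are a further one. CRK18 (chr4:12167416-12170080, minus strand) was at 30.8, 27.3, 32.8 and 28.6 FPKM in shoot and at 0.984, 0.571, 0.319 and 0.112 FPKM in root. Every root library was below 1 FPKM, and the log2 fold change was -5.00 (SE 0.24, limma adjusted p = 1.39e-08). In root libraries 1 to 4, CRK18 was at 3.30%, 1.91%, 1.07% and 0.375% of its shoot mean, highest where the shoot markers were highest. Those markers were at no more than 0.607% of their shoot means, and the part of shoot RNA in the CRK18 values was not tested. CRK19 (chr4:12170955-12174297, plus strand), whose induced expression is known to cause cell death in leaves, was at 21.8, 17.6, 22.8 and 14.8 FPKM in shoot and at 26.6, 24.5, 22.9 and 22.4 FPKM in root. The tissues overlapped, and the log2 fold change of 0.34 (SE 0.14) was only just called (limma adjusted p = 0.0473). That call was lost without shoot library 2 or 4 or any 1 of the 4 root libraries (0.22 to 0.37, adjusted p = 0.0551 to 0.123). The windows before the starts (chr4:12170081-12170330 minus and chr4:12170705-12170954 plus, RefSeq TAIR10.1) are shown to set this unlike pair beside the pair above, and capitals mark the W-box core, 3 times in CRK18 and 0 times in CRK19.
CRK18: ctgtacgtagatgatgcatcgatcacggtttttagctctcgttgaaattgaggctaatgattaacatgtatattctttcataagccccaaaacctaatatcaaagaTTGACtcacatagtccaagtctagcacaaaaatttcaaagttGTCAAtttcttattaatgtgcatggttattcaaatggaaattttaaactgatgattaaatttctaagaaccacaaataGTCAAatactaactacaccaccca
CRK19: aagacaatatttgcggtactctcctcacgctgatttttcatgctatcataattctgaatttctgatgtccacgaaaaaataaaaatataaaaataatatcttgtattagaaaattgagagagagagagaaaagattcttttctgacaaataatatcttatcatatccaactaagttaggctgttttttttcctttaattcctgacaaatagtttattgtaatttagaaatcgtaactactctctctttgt

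CRK10 to CRK14 lie side by side in the same run. All 5 were called higher in shoot, with log2 fold changes from -1.67 to -3.50. CRK10 (chr4:12137995-12140930), a gain-of-function allele of which is known to disturb xylem vessels, was at 5.11, 5.11, 6.01 and 4.32 FPKM in shoot and at 1.16, 1.42, 1.22 and 1.26 FPKM in root (log2 fold change -1.67, SE 0.14, limma adjusted p = 1.49e-06). CRK11 (chr4:12140899-12143858), known to be induced by salicylic acid and oxidative stress, was at 15.9, 7.16, 13.6 and 6.20 FPKM in shoot and at 2.65, 2.03, 2.39 and 2.31 FPKM in root (log2 fold change -1.88, SE 0.27, limma adjusted p = 1.02e-04). Shoot libraries 1 and 3 had about 2 times the CRK11 level of shoot libraries 2 and 4, and all 4 exceeded the root libraries. Both genes thus kept a clear level in root. They overlap by 32 bases on opposite strands, and since the library steps do not mark strand, reads there cannot be told apart.

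CRK12, CRK13 and CRK14 were close to undetected in root. CRK13 (chr4:12148673-12151638), whose overexpression is known to raise salicylic acid and resistance to bacteria, was at 7.02, 7.72, 7.20 and 2.07 FPKM in shoot, with 3 reads over the 4 root libraries. The ratio of shoot to root was 285, with a 95% counting interval of 97.1 to 1387 (limma adjusted p = 4.01e-06). Shoot library 4 stood apart below the other 3, and still above every root library. CRK14 (chr4:12154091-12156881) was at 6.05, 3.48, 7.38 and 4.15 FPKM in shoot, also with 3 root reads, a ratio of 191 with an interval of 65.0 to 932 (limma adjusted p = 1.63e-07). CRK12 averaged 3.04 FPKM in shoot and had 1 root read, a ratio of 419 with an interval of 74.5 to 16592.

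At the left end of the run, CRK5, whose overexpression is known to enhance defence and abscisic acid responses, was at 1.37 ± 0.593 FPKM in shoot and 0.0582 ± 0.0610 FPKM in root (SD, n = 4 each), a log2 fold change of -1.69 (SE 0.24, limma adjusted p = 1.07e-04). CRK9, the short gene without an annotated kinase domain, was at 1.51 ± 0.323 FPKM in shoot and 0.104 ± 0.0612 FPKM in root (log2 fold change -1.73, SE 0.17, limma adjusted p = 5.66e-06). Both were low in shoot, and their tissues did not overlap. Between them lie CRK6 (AT4G23140) and CRK7 (AT4G23150), known to protect against extracellular reactive oxygen species, with means of 0.144 and 0.0240 FPKM in shoot and no read in root. CRK8 (AT4G23160) lay at 0.10 FPKM in shoot and 0.0340 FPKM in root, and shares an identical coding stretch of 368 bases with CRK6, so these few reads cannot be assigned to either with certainty.

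Elsewhere on chromosome 4, CRK30 and CRK40 had means of 16.5 and 9.72 FPKM in shoot and 0.0779 and 0.119 FPKM in root. CRK30 (chr4:6963521-6967200) was at 18.2, 20.1, 11.1 and 16.5 FPKM in shoot and at 0.181, 0.0682, 0.0285 and 0.0334 FPKM in root (log2 fold change -4.85, SE 0.20, limma adjusted p = 4.08e-09). CRK40 (chr4:2288616-2292965) was at 8.81, 11.9, 9.58 and 8.58 FPKM in shoot and at 0.124, 0.0272, 0.136 and 0.186 FPKM in root (log2 fold change -4.04, SE 0.16, limma adjusted p = 3.48e-09). In both, every root library lay far below every shoot library. CRK40 shares an identical coding stretch of 182 bases with CRK39, which had 0.0616 FPKM in shoot and no read in root. CRK41 (chr4:418327-421885) and CRK42, on chromosome 5 (chr5:16151522-16155215), showed the same direction at lower levels, 1.71 ± 0.423 and 4.06 ± 0.812 FPKM in shoot against 0.0393 ± 0.0501 and 0.134 ± 0.211 FPKM in root (SD, n = 4 each), with log2 fold changes of -2.02 and -2.88 (limma adjusted p = 1.85e-06 and 9.99e-07). Root library 1 held most of the CRK42 signal in root, at 11.1% of the shoot mean. The shoot markers were highest in that library too, at no more than 0.607%, and their part in the CRK42 value was not tested. Among the other genes of this paragraph, CRK30 was highest in root library 1 (1.1%), CRK41 in library 2 (6.1%) and CRK40 in library 4 (1.92%).

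CRK2 (AT1G70520) and CRK3 (AT1G70530), a pair on chromosome 1 (chr1:26584729-26591776), were present in both tissues. This CRK2 is known to act on the NADPH oxidase RBOHD and in salt tolerance. CRK2 averaged 10.8 ± 2.12 FPKM in shoot and 7.81 ± 0.822 FPKM in root, and CRK3 averaged 11.2 ± 1.41 and 8.47 ± 1.11 FPKM (SD, n = 4 each). The log2 fold changes were -0.43 (SE 0.15, limma adjusted p = 0.0226) and -0.38 (SE 0.13, limma adjusted p = 0.0219). With libraries scaled by read totals alone, which moved the median of all genes from 0.07 to 0.59, the values were 0.0936 and 0.15 and neither was called. The CRK2 call was also lost without shoot library 1 or 3 or root library 4 (-0.34, -0.38 and -0.36), and the CRK3 call without shoot library 1 or 3 or root library 3 (-0.31, -0.35 and -0.32).

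Besides CRK19, 4 cysteine-rich genes were higher in root. CRK25 (chr4:2679723-2682384, minus strand) had the largest change, at 0.106, 0.115, 0.230 and 0 FPKM in shoot and 11.2, 8.10, 9.40 and 9.37 FPKM in root (log2 fold change 4.03, SE 0.17, limma adjusted p = 4.85e-09). It was near 0 in every shoot library and above 8 FPKM in every root library. CRK25 overlaps KIN14D by 492 bases on the opposite strand, and KIN14D was at 6.01 FPKM in shoot and 9.64 FPKM in root. Reads of the shared stretch cannot be assigned without strand, and their part in the CRK25 values was not tested. Its window before the start (chr4:2682385-2682634, minus strand, RefSeq TAIR10.1) is shown as that of the gene with the largest change towards root, with its 2 W-box cores in capitals.
CRK25: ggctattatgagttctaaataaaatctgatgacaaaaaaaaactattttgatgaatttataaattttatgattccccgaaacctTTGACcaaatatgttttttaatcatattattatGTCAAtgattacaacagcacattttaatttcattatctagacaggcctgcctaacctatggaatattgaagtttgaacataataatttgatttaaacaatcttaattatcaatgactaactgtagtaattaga

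CRK27 (chr4:11319139-11321679) was at 0.792, 0.246, 0.344 and 0.119 FPKM in shoot and at 5.54, 6.0, 5.54 and 6.93 FPKM in root (log2 fold change 2.94, SE 0.22, limma adjusted p = 5.29e-07). CRK26 (chr4:18122175-18124943) averaged 0.350 ± 0.174 FPKM in shoot and 2.52 ± 0.513 FPKM in root (SD, n = 4 each; log2 fold change 1.84, SE 0.19, limma adjusted p = 9.17e-06). The tissues did not overlap for either gene. CRK25, CRK26 and CRK27 do not adjoin each other or any other CRK gene, since none lies in a run.

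The symbol CRK34 stands for 2 neighbouring genes with opposite patterns. AT4G11521 (chr4:6985517-6986819) ends 18 bases before AT4G11530 (chr4:6986838-6989793) begins on the same strand. The short AT4G11521 was at 3.53, 4.99, 1.99 and 1.85 FPKM in shoot and at 0.589, 0.129, 0.0540 and 0.0633 FPKM in root (log2 fold change -2.31, SE 0.31, limma adjusted p = 6.49e-05). AT4G11530 was at 1.39, 1.56, 1.85 and 1.17 FPKM in shoot and at 7.04, 7.16, 6.36 and 6.32 FPKM in root (log2 fold change 1.87, SE 0.14, limma adjusted p = 6.77e-07). Neither gene had overlapping tissues, so a value looked up by the symbol alone would depend on which locus was meant. Root library 1 had the highest AT4G11521 level in root, 19.1% of the shoot mean. It was also highest there for the shoot markers, at no more than 0.607%, whose part in the AT4G11521 value was not tested. The same run (chr4:6963521-6989793) holds CRK30, CRK31, CRK32 and CRK33, of which CRK30 alone was tested.

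The 17 genes below the filter had 0 to 52 reads over the 8 libraries, and the highest mean was 0.643 FPKM for CRK16 in shoot. The 4th-highest library of the tested genes nearest the limit was at 0.617 FPKM for CRK5, 1.16 for CRK9 and 1.38 for CRK41, and that of the untested genes nearest it was at 0.397 FPKM for CRK16, 0.254 for CRK36 and 0.218 for CRK20. CRK16 overlaps its neighbour EMB1290 by 1190 bases on the same strand, so its level is uncertain. No read was counted in any library for CRK23, CRK33, CRK37, CRK38 and CRK43. Over all 48 genes, CRK21, CRK22, CRK24, CRK39, CRK6 (AT4G23140) and CRK7 (AT4G23150) had reads in shoot only, and CRK32 in root only, at 0.139 ± 0.122 FPKM (SD, n = 4). CRK15 averaged 0.541 FPKM in shoot and 0.0187 FPKM in root, and CRK31 0.232 and 0.0981 FPKM. The cysteine-rich CRK4 (AT3G45860) and CRK20, known like CRK19 and CRK5 for causing cell death in leaves when their expression is induced, lay at 0.0732 and 0.366 FPKM in shoot and 0.308 and 0.0151 FPKM in root. CRK36, known in responses to abscisic acid and osmotic stress, was at 0.226 ± 0.207 FPKM in shoot and 0.215 ± 0.0814 FPKM in root (SD, n = 4 each). CRK20 was thus about as low as the rest of this group although its coding sequence is 90.2% identical to that of CRK19, its neighbour at 435 bases with about 20 FPKM.

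Promoters of the cysteine-rich genes were searched for the W-box core, TTGAC on either strand, the site that WRKY transcription factors of the salicylic acid response recognise. In the 250 bases before the start, the core occurred in 31 of 41 cysteine-rich genes (75.6%) and in 3 of 7 CDPK-related genes, beside 44.9% of the 27443 protein-coding promoters searched. The search counted only exact matches and no other motif, a match is not evidence of binding, and no test was made. Some windows lie partly or wholly in the body of a neighbouring gene. That of CRK28 lies within CRK29 and held no core. Most of the AT4G11530 window, its 1 core included, lies in AT4G11521, and the CRK15 window reaches into CRK16. The CRK16 window, with its 3 cores, lies in EMB1290, which overlaps CRK16. Such windows were not counted or set apart, so the shares given here include bases of neighbouring genes. The annotated start is also not the same kind of point in every gene. For CRK14, CRK15, CRK33 and CRK43 the gene length equals the coding length, so the window lies directly before the coding sequence. The 44.9% covers promoters of all genes, and no share for genes of like level was made. The share of genes with a core was compared over classes of level set after the values were seen. Of the 17 genes with a mean below 1 FPKM in both tissues, 17 held a core. Among genes with 1 to 5 FPKM in the higher tissue it was 6 of 7, and among those with at least 5 FPKM it was 8 of 17 (47.1%). Counted as cores, there were 28 in the 17 genes below 1 FPKM, 14 in the 7 genes with 1 to 5 FPKM and 17 in the 17 genes with at least 5 FPKM. Genes with a core had a median of 0.541 FPKM in the higher tissue (range 0 to 96.6), and the 10 without one had a median of 12.2 FPKM (range 3.04 to 27.0). By direction, a core was held by 10 of 19 genes higher in shoot and 4 of 5 higher in root. CRK11 held the most, with 6 cores in its window (chr4:12143859-12144108, minus strand, RefSeq TAIR10.1), which is shown for that reason with the cores in capitals.
CRK11: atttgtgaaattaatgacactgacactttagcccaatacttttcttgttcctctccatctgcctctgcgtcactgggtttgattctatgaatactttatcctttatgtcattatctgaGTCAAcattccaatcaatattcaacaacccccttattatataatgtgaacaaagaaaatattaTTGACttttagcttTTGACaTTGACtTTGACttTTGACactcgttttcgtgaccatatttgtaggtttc

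**Figure D4:**
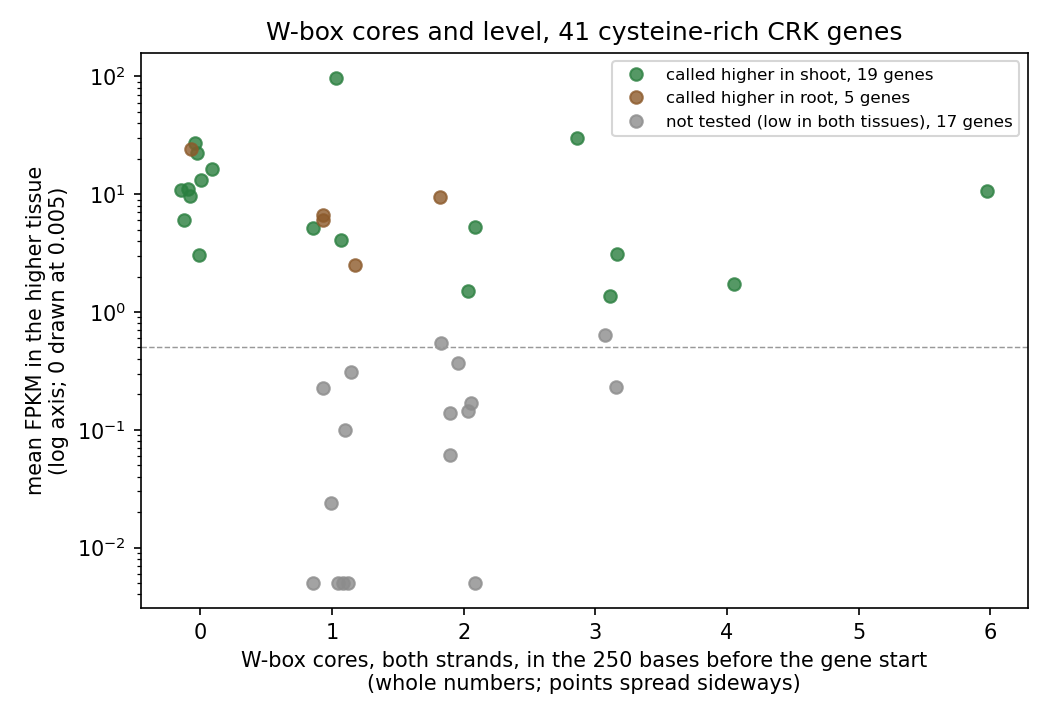
Mean FPKM in the higher tissue (log axis) of each of the 41 cysteine-rich CRK genes against the number of W-box cores in the 250 bases before its start; each point is a gene, coloured by its call. All genes below 1 FPKM hold at least 1 core, and the 10 genes without a core lie between 3.04 and 27.0 FPKM.

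The 7 CDPK-related kinases were expressed in every library, with log2 fold changes between -0.32 and 1.35. Of the 7, 4 were called higher in root, CRK1 was called higher in shoot and 2 did not pass the test; with libraries scaled by read totals alone none was called higher in shoot. The share called, 71.4%, was near the 69.6% of all genes tested. The median log2 fold change was 0.29, beside 0.07 over all genes tested. CRK2 (AT3G19100, chr3:6605296-6609295) was at 19.2, 17.5, 20.9 and 18.6 FPKM in shoot and at 39.9, 42.5, 33.3 and 35.5 FPKM in root, without overlap (log2 fold change 0.97, SE 0.10, limma adjusted p = 7.22e-06). It was the most abundant of all 48 genes in root. CRK8 (AT1G49580, chr1:18351324-18354634) was at 9.13, 9.54, 11.3 and 9.52 FPKM in shoot and at 22.8, 26.6, 21.9 and 23.4 FPKM in root (log2 fold change 1.22, SE 0.10, limma adjusted p = 1.21e-06). CRK6 (AT3G49370) rose from 1.5 ± 0.171 FPKM in shoot to 4.60 ± 0.665 FPKM in root (SD, n = 4 each; log2 fold change 1.35, limma adjusted p = 1.23e-05).

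The remaining CDPK-related kinases had log2 fold changes between -0.32 and 0.29. CRK3 (AT2G46700) was at 5.84 ± 0.469 FPKM in shoot and 7.26 ± 0.285 FPKM in root (SD, n = 4 each; log2 fold change 0.29, limma adjusted p = 0.030), a call lost without any 1 of shoot libraries 1, 3 and 4 or root libraries 2 and 3, and with replicate number as a block. CRK1 (AT2G41140) was at 15.8 ± 1.84 FPKM in shoot and 12.5 ± 1.01 FPKM in root (SD, n = 4 each; log2 fold change -0.32, limma adjusted p = 0.0235), a call lost without shoot library 2 or 3 or root library 1 or 3, with a value of 0.22 under read totals alone. CRK4 (AT5G24430) was at 16.4 and 13.6 FPKM (-0.25, SE 0.11, limma adjusted p = 0.0641), and was called higher in shoot without shoot library 2 (-0.31). CRK7 (AT3G56760) was at 9.68 and 9.07 FPKM (-0.08, SE 0.14, limma adjusted p = 0.610).

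Genes that share the cysteine-rich domain or work with these kinases were taken from 3 lists. The plasmodesmata-located proteins (PDLP) carry the same pair of extracellular domains without a kinase. All 8 were tested, 6 were called higher in root and PDLP3 higher in shoot, and PDLP1 did not pass; with read totals alone none was called higher in shoot. The share called was 87.5%, beside 69.6% of all genes tested, and the median log2 fold change was 1.23. PDLP3, with the highest mean of the list in shoot but not in root, was at 14.5, 17.2, 14.9 and 16.1 FPKM in shoot and at 8.16, 9.09, 9.84 and 10.8 FPKM in root (log2 fold change -0.70, limma adjusted p = 2.02e-04, and -0.17 under read totals alone). PDLP4 had 2 reads over the shoot libraries and 4.66, 6.62, 8.13 and 7.03 FPKM in root, a ratio of root to shoot of 156 with a 95% counting interval of 42.9 to 1289.

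Of 12 signalling partners of surface receptor kinases, 6 were called higher in shoot and 3 higher in root (3 and 5 under read totals alone), with a median log2 fold change of -0.37. The share called, 75.0%, was near the 69.6% of all genes tested. FLS2, the receptor of bacterial flagellin, was at 36.7, 31.1, 37.7 and 29.3 FPKM in shoot and at 1.67, 1.05, 0.166 and 0.330 FPKM in root (log2 fold change -4.87, limma adjusted p = 2.08e-07). It was high in all shoot libraries, and within root it was highest in libraries 1 and 2. The shoot markers were highest there too, at no more than 0.607% of their shoot means, and their part in the FLS2 values was not tested. RBOHF, an NADPH oxidase, was at 2.92 ± 1.08 FPKM in shoot and 14.4 ± 3.48 FPKM in root (SD, n = 4 each; log2 fold change 2.15, limma adjusted p = 2.17e-05). MPK3, a MAP kinase with the highest mean of the list in shoot but not in root, averaged 41.4 FPKM in shoot and 31.2 FPKM in root (log2 fold change -0.40, limma adjusted p = 0.00900), a call lost without root libraries 1 and 2 (-0.28) and a value of 0.15 under read totals alone. Chosen for their known ties to CRK2 and CRK28 once values were seen, RBOHD was at 9.08 ± 1.53 FPKM in shoot and 13.8 ± 3.57 FPKM in root (SD, n = 4 each; log2 fold change 0.55, limma adjusted p = 0.0238; call lost without shoot library 4 or root library 2 or 3) and BAK1 at 28.9 ± 2.56 and 38.7 ± 1.37 FPKM (SD, n = 4 each; log2 fold change 0.41, limma adjusted p = 0.00122).

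Of 16 genes of salicylic acid synthesis and response, WRKY factors included, 13 were tested, 5 were called higher in shoot and 4 higher in root (3 and 8 under read totals alone), and the shoot count was 3 without shoot library 1, shoot library 2, root library 4, or root libraries 1 and 2 together. The share called, 69.2% of those tested, was near the 69.6% of all genes tested, and the median log2 fold change was 0.15. PR1, the usual marker of the salicylic acid response, had no read in any library. PR5, another such marker, was at 6.83, 18.9, 11.2 and 12.6 FPKM in shoot with 0 reads in root (limma adjusted p = 4.38e-08). WRKY60 was at 0.925 ± 0.200 FPKM in shoot and 5.94 ± 0.851 FPKM in root (SD, n = 4 each; log2 fold change 2.18, limma adjusted p = 5.06e-07). WRKY33, the most abundant, was at 22.3 and 24.6 FPKM (log2 fold change 0.15, limma adjusted p = 0.437, and 0.69 with adjusted p = 0.00267 under read totals alone). In 2 other receptor kinase families the counts ran as follows. Of 40 lectin receptor kinases 27 were tested, 14 called higher in root and 5 in shoot (16 and 2 under read totals alone), with a median log2 fold change of 0.45. Of 24 wall-associated kinases 16 were tested, 5 called higher in root and 7 in shoot (7 and 5 under read totals alone), with a median of -0.40. The shares called, 70.4% and 75.0%, were near the 69.6% of all genes tested, of which 37.6% were higher in root and 32.0% higher in shoot. The difference between these families and the cysteine-rich genes was not tested.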

How the data were processed

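Polyadenylated RNA of 4 shoot and 4 root samples, grouped by the tissue in the labels, was sequenced as pairs of 150-base reads, by steps that do not mark strand, per the labels' protocols. Tools named per the submitters' processing notes are featureCounts 1.5.0-p3 and HISAT2 2.0.5, with the TAIR10 build. Although its name speaks of counts, the deposited table holds FPKM values from the authors, as its numbers show. They are scaled by gene length and by an adjusted library size made in a way not given in the sources used here. Whole reads were recovered from each value times gene length (100% whole, largest deviation 4.66e-10 reads). The growth protocol attached to the samples describes another species and was not used. The counting of reads shared between genes is likewise not given.

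limma 3.58.1 in R 4.3.3 was fitted with a trend to log2(FPKM + 0.5), without a block, for genes with at least 0.5 FPKM in at least 4 libraries, with Benjamini-Hochberg adjustment over 20314 genes. A fold against 0 reads is a bound against 3 reads over the tissue, and 1 to 3 reads give a ratio with a 95% counting interval. Both cover counting error only. The fit was tested on simulated data. Members and lists were chosen with earlier results of these data known. Given library by library were members called with at least 2-fold change and a mean of at least 5 FPKM in the higher tissue, the 3 most abundant of each tissue, and CRK34 (AT4G11521), added to this rule after its values were seen. From each list the rule named the member with the highest mean in either tissue and the largest change in each direction. The 17 alternatives covered pseudocount, filter, scaling, limma-voom, a replicate block and libraries left out. Coding sequences and promoters came from RefSeq TAIR10.1.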

Additional observations from a re-analysis of the deposited data

Results flagged for a closer look

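Of 47 groups of 4 libraries examined, 2 held a library far from the other 3, and chance flags about 1 in 20 groups. CRK13 in shoot was at 2.07 FPKM in library 4, beside 7.02 to 7.72 FPKM in the other 3. PDLP4 in shoot was at 0.147 FPKM in library 3, from 2 reads, and had no read in the other 3 shoot libraries. A group with a read in only 1 library is always flagged, so the rate of 1 in 20 does not apply to it.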

How the results depend on the processing

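Of the 24 cysteine-rich calls 21, and of the 5 CDPK-related calls 3, were kept in each of the 17 alternatives that tested the gene. The exceptions were CRK19 (adjusted p = 4.40e-04 to 0.25 over the alternatives), CRK2 AT1G70520 (0.0106 to 0.630), CRK3 AT1G70530 (0.0105 to 0.375), CRK1 (0.0118 to 0.10) and CRK3 AT2G46700 (3.82e-05 to 0.0960). The CRK19 call was also lost at a pseudocount of 0.1 (0.0501), with no filter (0.0569), with median-of-ratios scaling (0.0566) and without root libraries 1 and 2 (0.25). Scaling by read totals alone moved the most. Over all genes it called 12222 higher in root, 6726 of them at least 2-fold, and 3966 higher in shoot. It reversed CRK2 AT1G70520 (0.0936), CRK3 AT1G70530 (0.15), CRK1 (0.22), CRK4 AT5G24430 (0.29), CRK7 AT3G56760 (0.44, called with adjusted p = 0.0212) and MPK3 (0.15). Under it, calls higher in shoot numbered 0 among CDPK-related kinases, 0 among PDLP genes, 3 among partners, 3 among salicylic acid and WRKY genes and 2 among lectin receptor kinases, and calls higher in root numbered 5 among partners and 8 among salicylic acid and WRKY genes. Leaving out 1 library gave 4 to 5 cysteine-rich genes higher in root and 17 to 20 higher in shoot, 0 to 1 CDPK-related kinases higher in shoot, and 3 to 5 salicylic acid and WRKY genes higher in shoot. Without root libraries 1 and 2 the last count was 3. The causes of these changes were not tested.

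Whether replicate numbers pair the samples was not settled. Same-numbered libraries correlated by 0.015 to 0.071 in their deviations from the tissue means, and differently numbered ones by -0.062 to 0.026. Most libraries, but not every one, correlated best with their own number, and correlations this weak cannot decide the question. With the replicate number as a block, 5 cysteine-rich genes were called higher in root and 19 higher in shoot, CRK3 AT2G46700 lost its call (0.29, adjusted p = 0.0558), and 7593 genes in all were higher in root and 6511 higher in shoot. Depth limits the 17 untested genes and the size of fold changes against root levels near 0.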

Other observations

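Without a filter on low values, 12 of the 17 low cysteine-rich genes could be fitted, since the other 5 had no read. At these levels 4 were called higher in shoot (CRK15, CRK16, CRK20 and CRK24) and CRK4 (AT3G45860) higher in root, while 7 did not pass. The log2 fold changes were -0.98 for CRK16 (limma adjusted p = 0.00118), -0.90 for CRK15 (limma adjusted p = 0.0243), -0.72 for CRK20 (limma adjusted p = 0.00301), -0.40 for CRK24 (limma adjusted p = 0.0278) and 0.48 for CRK4 (limma adjusted p = 0.0329). CRK36 was at 0.02 (limma adjusted p = 0.946).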
